A study of Homo sapiens with 15 samples.

Results

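RNA polymerase II is the enzyme that transcribes protein-coding genes. Intron retention and spliced reads were described for the 10 genes POLR2A to POLR2J, which encode 10 of its subunits, in HCT116 cells, a human colon cancer line. Every intron listed under any of these gene names was taken. This gave 115 introns in any of the 4 deposited tables and 102 introns listed for all 4 clones, of 111143 and 83066 introns in all. The genes were 10 of the 11713 with a listed intron.

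The polymerase is built around its largest subunits, POLR2A (RPB1) and POLR2B (RPB2), which together form the active centre. The long C-terminal tail of POLR2A is phosphorylated through the transcription cycle and recruits capping, splicing and 3′-end processing factors, so splicing of most introns begins while the polymerase still transcribes the gene. POLR2C (RPB3) and POLR2J (RPB11) pair early in assembly, POLR2E (RPB5), POLR2F (RPB6) and POLR2H (RPB8) are shared with RNA polymerases I and III, POLR2I (RPB9) contributes to fidelity, and POLR2D (RPB4) and POLR2G (RPB7) form the stalk beside the RNA exit.

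The study set 4 clones labelled bktRNA1-deficient, numbered KO-1 to KO-4, each against wild-type HCT116 (WT), to look at expression and intron retention without bktRNA1. Each group had 3 libraries of polyadenylated RNA, which the labels place in independent experiments. Each clone is 1 isolate and there was 1 WT line, so a difference between a clone and WT holds for that isolate. What bktRNA1 is goes undescribed in the labels, and the genotypes are taken as labelled because bktRNA1 itself was not analysed here. Reads over the boundaries of an intron (retained reads) and reads spliced across it (spliced reads) were counted by the authors. A retention level is the share of retained reads after each form is divided by its effective length.

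Over the introns listed for all 4 clones, KO-1 libraries held 17287797 to 20454252 junction reads, and all other libraries 27092050 to 35348260. Retained reads made up 12.3% to 13.7% of them. Of 7 markers of colon epithelium, EPCAM, KRT8, KRT18, KRT19 and CDX2 had spliced reads in every library, with CDX2 lowest at 52 to 130 reads, and CDH1 and VIL1 were not analysed here. Mean scaled spliced reads of EPCAM were 4329, 4527, 9909 and 6065 in KO-1 to KO-4, against 8992 in WT, and those of KRT19 averaged 27193 to 39664 in the clones, against 22917 in WT. The part of this in the results below was not tested. In bulk RNA, fewer cells with a transcript and less of it per cell cannot be told apart.

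Most introns of these genes were nearly fully spliced in WT. The main transcript of a gene was taken as the annotated one whose introns held the most spliced reads in these data. Over the 94 introns that belong to these main transcripts, numbered from the 5′ end, the median WT retention level was 0.411%. Of these, 69 lay under 1% and 89 under 5%. Over all introns listed for all 4 clones the median WT level was 1.27%, with 45.3% under 1% and 72.9% under 5%. That set was not chosen by spliced reads and also holds alternative junctions, so it is not a like-for-like background. The median per gene was 0.115% for POLR2B and 0.319% for POLR2A, the catalytic subunits, and 0.292% for POLR2G. It was 2.01% for POLR2D, 2.38% for POLR2I and 4.96% for POLR2H.

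Only 5 numbered introns reached 5% in WT, and they lay in POLR2B, POLR2H and POLR2I. POLR2B intron 19 stood at 6.08% in WT. Intron 1 of POLR2H, in its 5′ UTR, was retained at 56.2% ± 18.5 in WT (SD, n = 3), and POLR2H intron 5 at 7.94%. The level of POLR2H intron 1 rests on few spliced reads. Scaled to a common library size, they averaged 18.0 in WT, against 455 for intron 2 and 666 for intron 3. POLR2I intron 1 was retained at 17.2% ± 4.49 in WT (SD, n = 3), and its intron 2 at 5.51%. POLR2I introns 1 to 3 overlap TBCB, which lies on the opposite strand. Whether the counts used strand is not given in the sources used here, so reads of TBCB and of POLR2I cannot be told apart there.

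**Figure D1:**
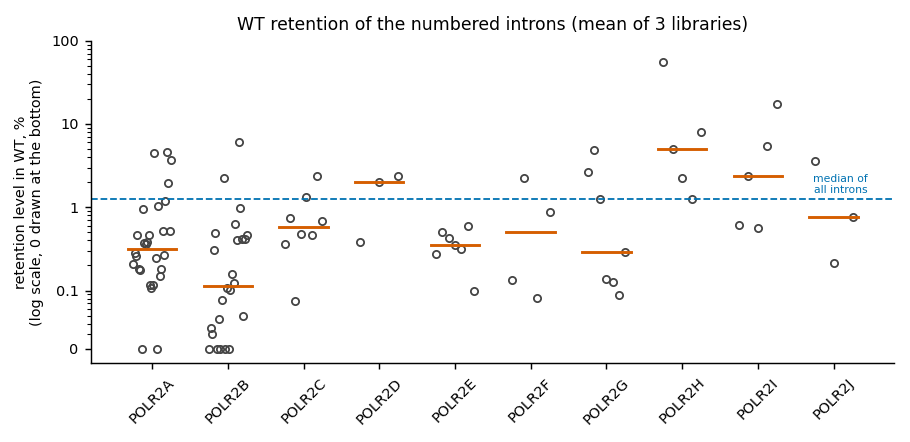
Mean retention level in the 3 WT libraries of each numbered intron, in percent on a log scale, by gene, with levels at or near 0 drawn at the bottom. Orange lines are gene medians and the dashed line is the median of all introns. Most points lie under 1%, and the points at 5% or more belong to POLR2B, POLR2H and POLR2I.

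Retention of POLR2H intron 2 was higher than in WT in KO-2 and KO-4, and no other intron of the 10 genes passed the test in any clone. POLR2H encodes RPB8, a small subunit common to all 3 nuclear polymerases. The intron lies within the coding sequence, spans 1400 bases at chr3:184363566-184364965 (hg38, + strand), and is kept in 2 annotated retained-intron transcripts. Its ends are shown because they hold the only change in retention that passed. The upstream end is chr3:184363551-184363574 and the downstream end chr3:184364941-184364970, both read 5′ to 3′ from GENCODE 29 transcripts.

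POLR2H intron 2 upstream end: agaagtttgaccgagGTAAGTAAG

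POLR2H intron 2 downstream end: tcactcttttcctgcttctccccagTGTCT

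In the upstream line the capitals mark the bases between the main splice donor and a second listed donor, whose junction starts at 184363575. In the downstream line they mark the start of exon 3. Donor bases could be read for 29 of the 94 numbered introns of the 10 genes, and 28 of these began with GT and 1 with GC.

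POLR2H intron 2 was retained at 7.38%, 8.93% and 8.54% in KO-1 and at 8.67%, 9.28% and 7.94% in KO-2. Its level was 6.44%, 4.47% and 6.27% in KO-3 and 8.53%, 11.7% and 9.04% in KO-4. In WT it was 4.98%, 4.08% and 5.83%. Every library of KO-1, KO-2 and KO-4 lay above all WT libraries, whereas KO-3 overlapped WT. The share of all introns whose levels or retained reads separated in this way is not given here.

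By the quasi-binomial test with Benjamini-Hochberg adjustment over all introns tested, the log2 odds of retention were 0.87 ± 0.22 (SE) higher in KO-2 than in WT (adjusted p = 0.016). They were 1.08 ± 0.23 higher in KO-4 (adjusted p = 0.0020). The difference was 0.81 ± 0.25 in KO-1 (adjusted p = 0.10) and 0.23 ± 0.24 in KO-3 (adjusted p = 0.90), and neither passed the quasi-binomial test. In the authors' deposited tables the adjusted p of this intron was 0.035 for KO-1 and 0.0017 for KO-2. It was 1.0 for KO-3 and 7.1e-05 for KO-4 in the authors' deposited tables. The KO-4 call was lost without 1 library, KO-4 replicate 2 in listed order (log2 odds 0.90, adjusted p = 0.10 by the quasi-binomial test). The KO-2 call was lost in 4 of the 6 fits that left out 1 library, with an adjusted p of 0.067 without KO-2 replicate 1, 0.13 without KO-2 replicate 2, 0.070 without WT replicate 1 and 0.17 without WT replicate 2. With limma on the log2 odds in place of the quasi-binomial test neither call passed (adjusted p = 0.20 for KO-2 and 0.13 for KO-4). Centred on the median intron, the KO-2 value was 0.78 (adjusted p = 0.059 by the quasi-binomial test) and the KO-4 call passed.

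The reads behind these levels moved differently in the clones. Scaled to a common library size, retained reads of POLR2H intron 2 numbered 61.1, 68.7 and 72.3 in KO-1, 85.4, 87.8 and 77.2 in KO-2, 62.4, 44.9 and 56.3 in KO-3, and 56.0, 80.8 and 59.2 in KO-4, against 46.0, 41.3 and 54.4 in WT. Retained reads thus lay above all WT libraries in KO-1, KO-2 and KO-4. Spliced reads across the intron numbered 384, 350.3 and 387 in KO-1, 449, 429 and 448 in KO-2, 453, 479 and 421 in KO-3, and 300.2, 305 and 298 in KO-4, against 439, 486 and 439 in WT. They lay below all WT libraries in KO-1 and KO-4, and overlapped WT in KO-2 and KO-3. Of all introns with a mean of at least 50 spliced reads, 14.5% lay below WT likewise in KO-1 and 23.2% in KO-4.

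**Figure D2:**
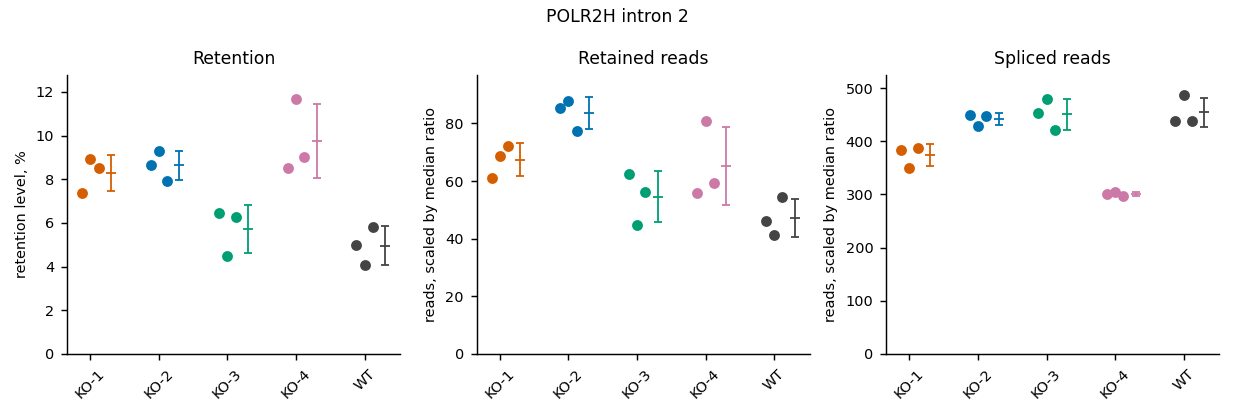
POLR2H intron 2 in each library of KO-1, KO-2, KO-3, KO-4 and WT, as retention level in percent, retained reads and spliced reads, both scaled by the median ratio. Points are libraries and the bars beside them give the mean and SD. Retained reads of KO-1, KO-2 and KO-4 lie above WT, and spliced reads of KO-1 and KO-4 lie below it.

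A test needed on average 10 retained and 10 spliced reads or more in the libraries compared. Of the 107, 107, 111 and 109 listed introns of the 10 genes in KO-1 to KO-4, 29, 31, 34 and 37 were tested, in 9 genes. No intron of POLR2D had enough reads. In KO-1, 0 introns of these genes were higher against 1.29% of all introns tested. In KO-2, 1 was higher against 1.30%, in KO-3 0 against 0.558%, and in KO-4 1 against 1.54%. No intron was lower in any clone, against 0.175%, 0.304%, 0.155% and 0.429% of all introns in KO-1 to KO-4. At these shares fewer than 1 call per clone would stand for the background, so the counts are near it. The authors' deposited table called 0 lower introns of these genes in KO-1 to KO-3 and 1 in KO-4, with 1 higher for KO-1, 1 for KO-2 and 2 for KO-4. The share of all introns called by the authors' adjusted p is not given here, and the shares above belong to the quasi-binomial test.

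The median change over the tested introns of the 10 genes was 0.21, 0.20, 0.07 and 0.29 log2 odds in KO-1 to KO-4, beside 0.13, 0.09, 0.02 and 0.16 over all introns tested. The value was positive for 19, 20, 19 and 30 of the 29, 31, 34 and 37 tested introns. The share of all introns with a positive value is not given here, so these counts have no background.

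Some introns had an unadjusted p under 0.05 and did not pass after adjustment. With POLR2H intron 2 included, 2, 1, 0 and 8 higher introns in KO-1 to KO-4 had an unadjusted p under 0.05 by the quasi-binomial test. The counts of lower introns were 0, 2, 1 and 2. The share of all introns under this unadjusted threshold is not given here. POLR2A intron 28 stood at 6.97% in KO-1 and 3.71% in WT (adjusted p = 0.20 by the quasi-binomial test). In POLR2G, which encodes the stalk subunit RPB7, intron 2 stood at 3.36% in KO-2 and 4.85% in WT (adjusted p = 0.35 by the quasi-binomial test). POLR2C intron 7 stood at 3.88% in KO-4 and 2.39% in WT (adjusted p = 0.22 by the quasi-binomial test). POLR2F intron 2 stood at 1.18% in KO-4 and 2.26% in WT, with an adjusted p of 0.14 by the quasi-binomial test and 0.039 in the authors' deposited table.

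Apart from POLR2H intron 2, levels of the tested introns spanned a wide range within a gene. The highest in POLR2G was an unnumbered junction that ends inside intron 2, with mean levels of 58.8%, 63.0%, 55.5% and 61.1% in KO-1 to KO-4, against 56.0% ± 6.96 in WT (SD, n = 3). The highest in POLR2H skips exon 5 and stood at 71.1% to 82.6% in the clones, against 74.7% ± 5.75 in WT (SD, n = 3). Such alternative junctions have few spliced reads. Intron 1 of POLR2I stood at 13.5% to 15.9% in the clones, against 17.2% in WT. Intron 3 of POLR2J stood at 2.36% to 3.56% in the clones, against 3.57% in WT. The lowest tested level was that of POLR2E intron 3, at 0.233% to 0.322% in the clones and 0.318% in WT. None of these passed the quasi-binomial test.

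Spliced reads summed over the introns of a gene served as a measure of spliced transcript. They were scaled by the median ratio across libraries and tested with limma over 9471 genes with Benjamini-Hochberg adjustment. Where all libraries of a clone lay above or below WT for a gene, the share of all genes doing so is not given. Per intron, the median WT count was highest for POLR2E at 1361 scaled reads and lowest for POLR2D at 174, with POLR2A at 293 and POLR2B at 476.

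In KO-1, 2 of the 10 genes passed this test in either direction, against 26.2% of all genes. KO-2 had 4 that passed against 43.0%, KO-3 had 3 against 30.7%, and KO-4 had 3 against 48.7%. Of these, 2 were higher in KO-1 (13.7% of all genes), 2 for KO-2 (21.9%), 2 for KO-3 (15%) and 1 for KO-4 (24.6%). None was lower in KO-1 (12.5% of all genes), while 2 were lower for KO-2 (21.1%), 1 for KO-3 (15.6%) and 2 for KO-4 (24.2%). These shares of 20%, 40%, 30% and 30% are near or under the background, so the number of changed genes does not set the polymerase apart. The median change over the 10 genes was -0.05, -0.03, 0.05 and -0.07 on the log2 scale in KO-1 to KO-4.

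Spliced reads also shifted along transcripts in some clones, over all genes. In KO-2, KO-3 and KO-4 the median intron whose 3′ splice site lies 22 to 757 exonic bases from the transcript end changed by 0.10, 0.13 and 0.08 log2 against WT. Introns at 5254 bases or more changed by -0.19, -0.18 and -0.16. In KO-1 the values were 0.013 and 0.0025. Distance was taken as the longest over all annotated transcripts that hold the intron, which need not be the main transcript. The median distance was 255 bases for POLR2I, 389 for POLR2G and 662 for POLR2H, and 4731 for POLR2D and 3892 for POLR2A. The changes of genes were therefore also computed after centring spliced reads within 10 classes of distance, an alternative chosen after seeing the data, and are given beside the values as counted for genes that passed in either form. After centring, 3 of the 10 genes passed for KO-1 (26.7% of all genes), 1 for KO-2 (41.9%), 0 for KO-3 (25.7%) and 5 for KO-4 (47.5%). In KO-1, 2 were higher (13.8% of all genes) and 1 lower (12.9%), and in KO-4 1 was higher (24.0%) and 4 lower (23.5%). KO-2 had 0 higher (21.5%) and 1 lower (20.4%), and KO-3 had 0 of either (12.7% and 13.0%). Beyond that, the part of this shift in the results was not tested.

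**Figure D3:**
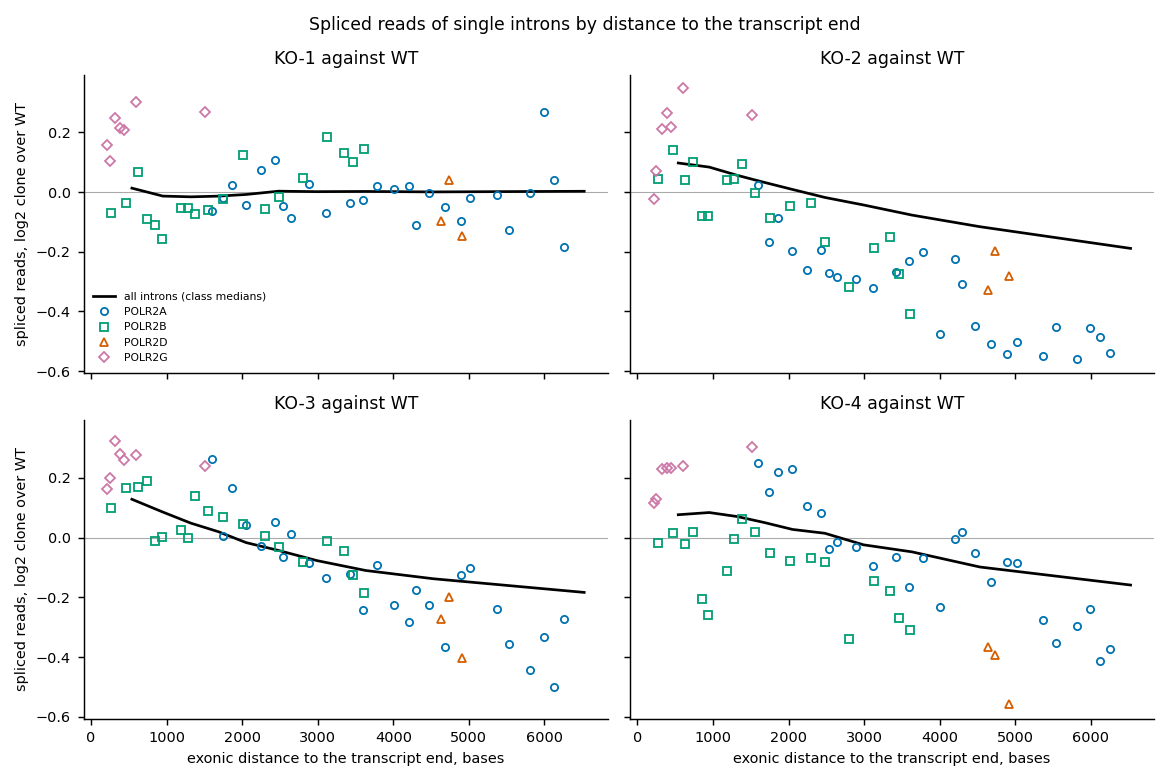
Change in spliced reads of single introns, log2 clone over WT, by distance from the 3′ splice site to the transcript end, with 1 panel per clone. The black line joins the medians of all introns in 10 classes, and symbols are introns of POLR2A, POLR2B, POLR2D and POLR2G. The line slopes down with distance in KO-2, KO-3 and KO-4 and stays near 0 in KO-1.

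Of the stalk subunits, POLR2G rose in all 4 clones and POLR2D fell in 3. POLR2G had 4414, 4376 and 4109.7 scaled spliced reads in KO-1, 4415, 4373 and 4005 in KO-2, 4249.7, 4567 and 4379.8 in KO-3, and 4483, 4229 and 4195 in KO-4, against 3601, 3725 and 3759 in WT. No clone library reached down to the WT range. By limma the change was 0.22 ± 0.05 log2 in KO-1 (1.16-fold, adjusted p = 0.0029), 0.21 in KO-2 (1.15-fold, adjusted p = 0.0024), 0.25 in KO-3 (1.19-fold, adjusted p = 0.00082) and 0.22 in KO-4 (1.16-fold, adjusted p = 0.0012). Among all genes tested, 1.63% were higher in all 4 clones. At the level of single introns, 5 of 7 introns of POLR2G lay above all WT libraries for KO-1 (13.5% of all introns with enough reads), 5 for KO-2 (20.3%), 6 for KO-3 (14.4%) and 5 for KO-4 (23.2%). These comparisons share the WT libraries, and the gene sum is made up of these introns, so their counts add no separate support. Centred by distance, POLR2G rose by 0.21 in KO-1 (adjusted p = 0.0048 by limma) and by 0.15 in KO-4 (adjusted p = 0.017), while the values of 0.11 in KO-2 (adjusted p = 0.085) and 0.13 in KO-3 (adjusted p = 0.077) did not pass.

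POLR2D, which encodes RPB4, had 543, 526 and 495 scaled spliced reads in KO-1, 465, 424 and 464 in KO-2, 427, 441 and 474 in KO-3, and 433, 401 and 381 in KO-4, against 525, 579 and 532 in WT. KO-1 overlapped WT, and the other 3 clones lay below it. By limma the change was -0.27 ± 0.08 log2 in KO-2 (0.827-fold, adjusted p = 0.012), -0.29 in KO-3 (0.82-fold, adjusted p = 0.013) and -0.43 in KO-4 (0.743-fold, adjusted p = 0.00023), and -0.07 in KO-1 (adjusted p = 0.62). Among all genes tested, 6.82% were lower in at least 3 clones. The KO-2 call was lost without KO-2 replicate 2 (adjusted p = 0.059 by limma) and without WT replicate 2 (adjusted p = 0.063). The KO-3 call was lost without KO-3 replicate 1 (adjusted p = 0.055 by limma) and without WT replicate 2 (adjusted p = 0.070). Centred by distance, the fall in KO-4 passed at -0.32 (adjusted p = 0.0028 by limma). The centred values of -0.17 in KO-2 (adjusted p = 0.12) and -0.16 in KO-3 (adjusted p = 0.15) did not.

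The ratio of POLR2G to POLR2D spliced reads, chosen after the values were seen, put both stalk genes in 1 measure. It was 8.13, 8.32 and 8.30 in KO-1, 9.49, 10.3 and 8.63 in KO-2, 9.94, 10.4 and 9.24 in KO-3, and 10.3, 10.5 and 11.0 in KO-4, against 6.85, 6.43 and 7.06 in WT. Each clone lay above WT, and centred by distance the clones still lay above it, at 7.60 to 9.88 against 6.44 to 7.19 in WT. Since the ratio was chosen after the changes of both genes were seen, this separation adds no support to them. The exact two-sided permutation p was 0.1 for each clone, the smallest that 3 libraries against 3 allow.

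**Figure D4:**
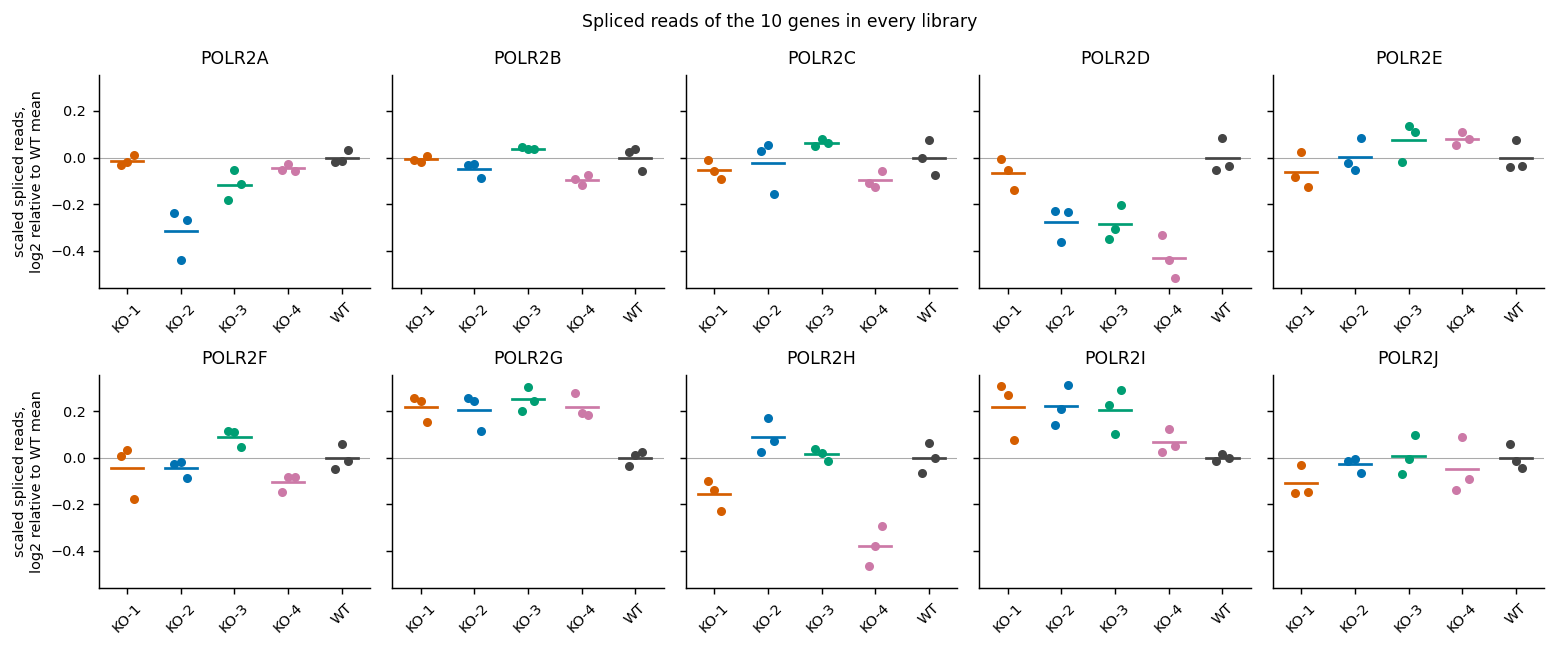
Scaled spliced reads of each of the 10 genes in every library, as log2 relative to the WT mean, with points for libraries and lines for means. POLR2G lies above WT in all clones, POLR2D lies below it in KO-2, KO-3 and KO-4, and POLR2H lies below it in KO-4.

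Of the catalytic subunits, POLR2A fell in KO-2, and as counted with all libraries POLR2B passed in no clone. POLR2A had 7020.2, 6120.3 and 6894 scaled spliced reads in KO-2, against 8189, 8208 and 8487 in WT. All KO-2 libraries lay below WT, with a change of -0.32 ± 0.05 log2 (0.804-fold, adjusted p = 2.5e-05 by limma) and of -0.26 centred by distance (adjusted p = 0.00018). POLR2A had 8110.3, 8191 and 8346 reads in KO-1, 7299, 7983 and 7657 in KO-3, and 7981, 8145 and 7960.3 in KO-4. As counted, all libraries of KO-3 and KO-4 also lay below WT. In KO-1, KO-3 and KO-4 the change did not pass (adjusted p = 0.88, 0.077 and 0.46 by limma), nor did it when centred (adjusted p = 0.84, 0.47 and 0.99).

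Within POLR2A the changes in KO-2, KO-3 and KO-4 differed between introns far from and near to the transcript end, in the direction of the shift over all genes. In KO-2, 20 of 26 introns had fewer spliced reads than every WT library, against 22.5% of all introns with enough reads. The count was 10 in KO-3 (18.0% of all introns), 7 in KO-4 (23.2%) and 3 in KO-1 (14.5%). Intron 2, 6126 exonic bases from the transcript end, had changes of -0.49, -0.50 and -0.41 log2 in KO-2 to KO-4. Intron 28, 1596 bases from it, had 0.02, 0.26 and 0.25 in the same clones. In KO-1 intron 2 had 0.04 and intron 28 by -0.06.

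POLR2B, the RPB2 gene, ranged from 8863 to 9029 scaled spliced reads in KO-1, from 8460.2 to 8807 in KO-2, from 9204 to 9262 in KO-3 and from 8278 to 8525 in KO-4, against 8623 to 9211 in WT. Its change in KO-4 was -0.09 (adjusted p = 0.063 by limma) and -0.13 centred by distance (adjusted p = 0.011). As counted with all libraries it did not pass, but with 1 library left out its adjusted p reached down to 0.026 by limma.

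Of the subunits shared by the polymerases, POLR2H fell in KO-4 alone among the comparisons as counted, and POLR2E and POLR2F passed in none. POLR2H had 2343, 2285 and 2146 scaled spliced reads in KO-1, 2556, 2827 and 2643 in KO-2, 2578, 2545 and 2488 in KO-3, and 1820.1, 1932 and 2052 in KO-4, against 2403, 2623 and 2509 in WT. KO-4 and KO-1 lay below all WT libraries. By limma the change was -0.38 log2 in KO-4 (0.77-fold, adjusted p = 1.4e-05) and -0.15 ± 0.06 in KO-1 (adjusted p = 0.054). Centred by distance it was -0.45 in KO-4 (adjusted p = 8.1e-07) and -0.17 in KO-1 (adjusted p = 0.028). In KO-4, 4 of the 5 numbered introns of POLR2H lay below all WT libraries, against 23.2% of all introns with enough reads. They are part of the gene sum, so their count adds no separate support. Intron 2 was also more retained in KO-4. In KO-2 intron 2 was more retained and the gene sum differed by 0.09 (adjusted p = 0.22 by limma), or by -0.014 when centred (adjusted p = 0.87).

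POLR2E, for RPB5, ranged from 8483 to 10174 scaled spliced reads over the clones, against 8988 to 9763 in WT, and POLR2F, for RPB6, from 2240.5 to 2745 over the clones, against 2453 to 2641 in WT. Their changes lay between -0.10 and 0.09 log2, with adjusted p of 0.14 or more by limma.

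Of the remaining subunits, POLR2I rose in 3 clones, and POLR2C and POLR2J passed in none. POLR2I, for RPB9, had 1455, 1416 and 1238 scaled spliced reads in KO-1, 1295, 1357 and 1460.2 in KO-2, 1373, 1258 and 1437 in KO-3, and 1193, 1281 and 1216 in KO-4, against 1161, 1186 and 1174 in WT. All clone libraries exceeded the WT range, including those of KO-4, where the change did not pass. By limma the change was 0.22 ± 0.07 log2 in KO-1 (1.16-fold, adjusted p = 0.024), 0.22 in KO-2 (1.17-fold, adjusted p = 0.013), 0.21 in KO-3 (1.15-fold, adjusted p = 0.029) and 0.07 in KO-4 (adjusted p = 0.45). Among all genes tested, 8.53% were higher in at least 3 clones. Centred by distance, the rise passed in KO-1 at 0.20 (adjusted p = 0.031 by limma) and did not in KO-2 at 0.12 (adjusted p = 0.18) or KO-3 at 0.06 (adjusted p = 0.54). The KO-3 call was lost in 5 of 15 fits without 1 library, those without KO-3 replicate 1 or 3 or any of the WT libraries (adjusted p = 0.056 to 0.13 by limma). The KO-1 call was lost without KO-1 replicate 1 or 2 or WT replicate 1 (adjusted p = 0.062 to 0.10 by limma), and the KO-2 call without KO-2 replicate 3 (adjusted p = 0.080).

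POLR2C, for RPB3, ranged from 3124 to 3682 scaled spliced reads over the clones, against 3309.7 to 3671 in WT, with adjusted p of 0.16 or more by limma. Centred by distance its change in KO-4 was -0.16 (adjusted p = 0.022). POLR2J, for RPB11, ranged from 1293 to 1536 over the clones, against 1389 to 1493 in WT, with adjusted p of 0.25 or more by limma. POLR2J has near-identical copies, POLR2J2, POLR2J3 and POLR2J4, so its reads are uncertain.

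**Figure D5:**
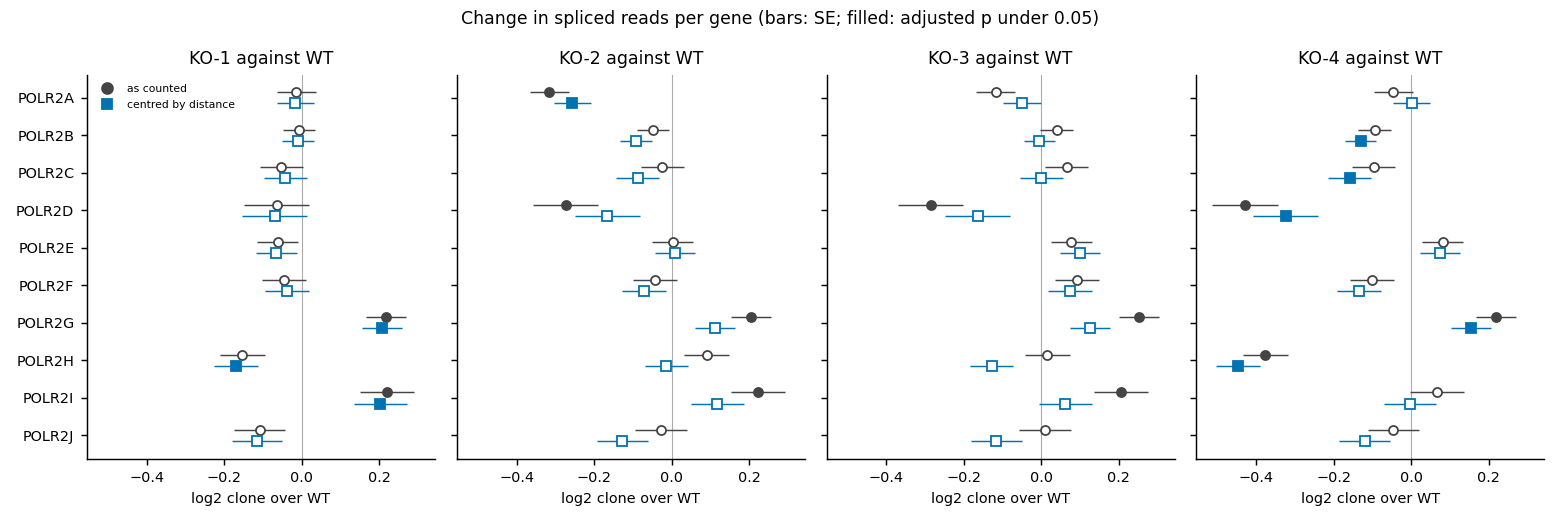
Change in spliced reads of each gene, log2 clone over WT with its SE, as counted and centred by distance to the transcript end, with 1 panel per clone. Filled symbols have an adjusted p under 0.05. Centring brings POLR2G, POLR2I and POLR2D closer to 0 in KO-2 and KO-3, and POLR2H in KO-4 stays below 0.

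The changes also differed among the clones. By an F test over clone libraries in the limma fit, 5 of the 10 genes passed, POLR2A, POLR2B, POLR2D, POLR2F and POLR2H, against 75.4% of all genes. For retention, 1 of 33 tested introns passed the quasi-binomial test among clones, POLR2H intron 2 (adjusted p = 0.013), against 6.41% of all introns.

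Other genes of the transcription machinery were counted from lists of known members. The shares of all genes that passed were 13.7%, 21.9%, 15% and 24.6% higher and 12.5%, 21.1%, 15.6% and 24.2% lower in KO-1 to KO-4. Centred by distance, they were 13.8%, 21.5%, 12.7% and 24.0% higher and 12.9%, 20.4%, 13.0% and 23.5% lower. Each count below is to be read against the shares of its own form, as counted or centred. Of 3 tested further subunits of the polymerase, 1 rose in each clone, while 1 fell in KO-2 and likewise 1 fell in KO-4. The gene that rose was POLR2L (RPB10), by 0.27, 0.37, 0.24 and 0.18 log2 in KO-1 to KO-4 (adjusted p = 0.0030, 6.7e-05, 0.0073 and 0.025 by limma). Centred by distance, POLR2L passed in KO-1 and KO-2 and not in KO-3 or KO-4. Only 1 intron of the further subunits was tested in each clone. In KO-4 it was an intron of POLR2K (RPB12), retained at 2.66% ± 0.81 against 0.898% ± 0.21 in WT (SD, n = 3). It passed there (adjusted p = 0.0068 by the quasi-binomial test), where 1.54% of all introns tested were higher. The intron tested in KO-1, KO-2 and KO-3 did not pass.

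Of 19 subunit genes particular to RNA polymerases I and III, 5, 10, 5 and 13 fell in KO-1 to KO-4 and 0, 1, 2 and 1 rose. Centred by distance, 5, 8, 2 and 13 fell and 0, 1, 1 and 1 rose. The median change was -0.10, -0.21, -0.11 and -0.30 log2, and -0.11, -0.16, -0.13 and -0.29 when centred. POLR3G, a polymerase III subunit, fell by 0.39, 0.41, 0.27 and 0.96 log2 in KO-1 to KO-4 (adjusted p = 0.0043, 0.0013, 0.037 and 3.1e-08 by limma). Its value in KO-3 did not pass when centred by distance (adjusted p = 0.093).

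Of 16 genes for assembly and nuclear import of the polymerase, 5, 5, 3 and 9 fell in KO-1 to KO-4 and 0, 0, 2 and 1 rose. Centred by distance, 5, 5, 4 and 7 fell and 0, 0, 0 and 1 rose. GPN2, a GTPase of this group, fell by 0.54, 0.38, 0.37 and 0.56 log2 (adjusted p = 0.00025, 0.0028, 0.0062 and 6.0e-05 by limma), and passed in all 4 clones also when centred. Of all genes tested, 1.07% were lower in all 4 clones. An intron of GPN2 at chr1:26879750-26884159 was retained at 39.6% in KO-1, 29.7% in KO-3 and 29.4% in KO-4, against 16.4% in WT (adjusted p = 0.00012, 0.040 and 0.024 by the quasi-binomial test).

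Of 18 general transcription factor genes, 3, 2, 2 and 2 rose and 3, 2, 0 and 6 fell in KO-1 to KO-4. Centred by distance, 4, 2, 3 and 3 rose and 3, 3, 0 and 6 fell. Of 29 elongation and pausing genes, 4, 11, 3 and 4 rose and 5, 6, 9 and 9 fell. Centred, 4, 6, 2 and 4 of them rose and 5, 7, 7 and 10 fell. TCEA1, which helps a stalled polymerase resume, fell by 0.32, 0.47, 0.30 and 0.32 log2 in KO-1 to KO-4 (adjusted p = 0.00039, 2.1e-06, 0.00083 and 0.00020 by limma). TCEA2, its paralogue, rose by 0.95 for KO-1, 0.56 for KO-2 and 0.59 for KO-4 (adjusted p = 2.6e-07, 0.00011 and 4.9e-05 by limma), with 0.01 for KO-3 (adjusted p = 0.94). Both genes had the same calls when centred. Of 21 kinases, phosphatases and readers of the C-terminal domain, 2, 0, 0 and 4 rose and 2, 5, 3 and 3 fell. Centred, 2, 0, 1 and 4 of them rose and 2, 6, 1 and 4 fell.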

How the data were processed

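Polyadenylated RNA of 15 libraries was sequenced from a directional kit. The submitters' processing notes name cutadapt 2.0 and STAR 2.7.1a, with the build hg38. Neither the counting tool, its use of strand nor the authors' test was given in the sources used here. Per the file headers, the authors deposited counts of retained and spliced junction reads, effective lengths, levels as fractions, a difference of levels as a score, and p-values with adjusted p-values, for 3 libraries in each cell. Libraries are called replicates 1 to 3 in listed order, since no number is attached to them. Levels recomputed from counts and lengths differed from the deposited levels by at most 0.0005.

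Introns averaging 10 or more retained and 10 or more spliced reads were tested with a quasi-binomial model, its dispersion moderated with limma 3.58.1 (R 4.3.3) and floored at 1, and genes with a mean of at least 50 spliced reads with limma (eBayes with a trend) on log2 of scaled reads plus 0.5. P-values were adjusted by Benjamini-Hochberg over all features tested, with a threshold of 0.05. The planned count tests of spliced reads were not run, and limma, planned as a second method, took their place. Both tests were tested on simulated data with the spread of the real libraries. The retention test then missed a 2-fold change in odds more often than it called it, so an intron that did not pass is not shown to be unchanged. Annotation was GENCODE 29. The rule named each subunit's introns past the threshold, with the highest and lowest level and with the smallest adjusted p, and at most 4 genes per other list past the threshold in at least 3 clones, of which some are given with values. Other introns and the ratio of POLR2G to POLR2D were chosen after their values were seen. 1 junction is not reported here. The members and lists were chosen with earlier results of these data known. SDs cover the spread between the 3 libraries of a group. SEs of retention cover counting error and the spread between libraries of the clone and of WT. SEs of genes come from 1 fit of all 15 libraries, with 1 spread shared by WT and the 4 clones. No SE covers the spread between isolates of a genotype.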

Additional observations from a re-analysis of the deposited data

Results flagged for a closer look

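The changes against WT differed among the 4 clones for 5 genes by the limma F test and for 1 intron by the quasi-binomial test, each with Benjamini-Hochberg adjustment. For POLR2A the adjusted p was 5.4e-05, with a change of -0.32 log2 in KO-2 and between -0.12 and -0.01 in the other clones. For POLR2B it was 0.034, for POLR2D 0.005 and for POLR2F 0.024. For POLR2H it was 1.1e-06, with -0.38 in KO-4 and 0.09 in KO-2. Retention of POLR2H intron 2 differed with an adjusted p of 0.013, with mean levels of 8.28%, 8.63%, 5.73% and 9.75% in KO-1 to KO-4. Among all genes 75.4% differed among the clones, and among all introns 6.41%.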

How the results depend on the processing

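No paired analysis was possible because the deposited lists carry no replicate numbers. The planned DESeq2 test and the planned size-factor scaling in a count model were not run. No called value changed sign under any alternative. The count of introns more retained was 0 for KO-2 with changes centred on the median intron, with a threshold of 0.01 and with limma on log2 odds, and 0 for KO-4 with limma. With the authors' p-values it was 1 for KO-1 and 2 for KO-4, with 1 less retained in KO-4, and the share of all introns called so is not given here. Among clones, 0 introns passed with no filter, without KO-3 or without KO-4, and 3 genes without KO-3 or without KO-4. Scaled by total spliced reads, 1 gene fell in KO-1 and 2 in KO-3, where 1 rose. Centred by distance to the transcript end, 1 gene fell for KO-1 and for KO-2, 0 for KO-3 and 4 for KO-4, and 0 rose for KO-2 and KO-3. Leaving out 1 library, genes that fell numbered 0 to 1 for KO-1, 1 to 2 for KO-2, 0 to 2 for KO-3 and 2 to 3 for KO-4. Genes that rose numbered 1 to 2 in KO-1, KO-2 and KO-3. Introns more retained numbered 0 to 1 in KO-1 and KO-2 and 0 to 2 in KO-4. The causes were not tested. KO-1 libraries were the shallowest, and the part of depth in its calls was not tested.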
